A study of Mus musculus with 12 samples.

Results

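Interferon-stimulated genes are the genes that cells switch on when they receive an interferon signal. The 39 genes described here were taken by symbol, all 39 were found among the 17471 genes listed in the library files, and all 39 had enough reads to be tested. By known role they comprised 16 antiviral effectors, 6 interferon-induced GTPases, 4 nucleic acid sensors, 4 signalling factors, 2 genes of antigen presentation and 7 other induced genes.

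The genes were read in RNA sequencing libraries of mouse left ventricle, with 3 libraries in each of 4 groups. Cre-positive MI and Cre-positive sham mice carried a copy of the tamoxifen-inducible recombinase MerCreMer in the endogenous periostin (Postn) locus and had floxed Yap alleles. Cre-negative MI and Cre-negative sham mice were related mice with floxed Yap and an intact Postn locus. MI denotes infarction by permanent ligation of a coronary artery, the left anterior descending branch, and sham the operation without ligation. All 4 groups received tamoxifen in the diet from surgery on, were 6 to 10 weeks old and were sampled at day 4. The Postn promoter is active in activated fibroblasts, so the deletion is directed to those cells and not to the whole ventricle, and the recombinase and the altered Postn copy cannot be told apart in these groups. The labels number the replicates and do not say more about their origin, so p-values measure the spread between these samples, which may be technical.

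Interferons bind receptors on the cell surface, and the Janus kinases there activate STAT proteins. STAT2 and IRF9 are subunits of the complex ISGF3, which binds a short DNA element, the interferon-stimulated response element (ISRE). Interferon gamma acts mainly through a different element, the gamma-activated site (GAS). Antiviral effectors interfere with viral RNA, translation, budding or entry. The interferon-induced GTPases are the immunity-related GTPases (Irgm1, Irgm2, Igtp, Iigp1) and the guanylate-binding proteins (Gbp2, Gbp3), known in mice for attacking the membranes of compartments that hold intracellular microbes. In the injured heart, infiltrating macrophages are a known source of interferon-stimulated transcripts.

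The promoters of both classes carried the ISRE letters, and stretches around the matches are shown for 4 effectors and for the 5 GTPases with a promoter window in the RefSeq table (build GRCm38.p6). A match is GAAANNGAAA on either strand, which reads TTTCNNTTTC when it lies on the other strand. Each line gives up to 20 bases on both sides of the matches, 5′ to 3′ on the gene's own strand, and capitals mark every base inside a match.
Isg15 (chr4:156200855-156200916, minus strand): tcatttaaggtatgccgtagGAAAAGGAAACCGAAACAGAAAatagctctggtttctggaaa
Ifit1 (chr19:34640765-34640833, plus strand): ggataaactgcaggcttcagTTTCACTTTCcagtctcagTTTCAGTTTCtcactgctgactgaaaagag
Oas1a (chr5:120907526-120907565, minus strand): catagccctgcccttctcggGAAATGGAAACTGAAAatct
Bst2 (chr8:71537567-71537622, minus strand): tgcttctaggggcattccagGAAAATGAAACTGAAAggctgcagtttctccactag
Irgm1 (chr11:48871421-48871470, minus strand): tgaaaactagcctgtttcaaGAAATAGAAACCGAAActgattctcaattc
Igtp (chr11:58199502-58199551, plus strand): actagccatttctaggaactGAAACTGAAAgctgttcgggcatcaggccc
Irgm2 (chr11:58214893-58214942, plus strand): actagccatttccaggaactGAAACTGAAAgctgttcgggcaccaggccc
Gbp2 (chr3:142620584-142620633, plus strand): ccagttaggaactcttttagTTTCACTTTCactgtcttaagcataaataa
Gbp3 (chr3:142559979-142560034, plus strand): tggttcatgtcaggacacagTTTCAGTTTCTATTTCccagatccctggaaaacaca

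Of the 39 genes, 30 had a window of 300 bases, from 250 before to 50 after the transcript start, and the other 9 (Mx1, Mx2, Oas2, Dhx58, Usp18, Rtp4, Zbp1, Iigp1 and Parp14) are named only. The ISRE letters were found in 19 of the 30 genes, or 63.3%, while 1079 of 27025 genes with a window, or 3.99%, held them. They were present in 9 of 13 effectors (69.2%) and in 5 of 5 GTPases. Isg15 held 3 overlapping matches, the first of which begins 78 bases before the start, and Irgm1 held 2 overlapping matches from 30 bases before it. The printed stretches of Igtp and Irgm2 carry the same match. The GAS letters, TTCNNNGAA, which read the same on both strands, were found in 8 of the 30 genes (26.7%) and in 9.55% of all genes with a window. They were present in 5 of 13 effectors and 2 of 5 GTPases. No ISRE letters were found in the windows of the other 11 genes, Herc6, Oasl1, Oasl2, Ifit2, Irf7, Irf9, Tap1, Xaf1, Ifi44, Ifi35 and Lgals3bp.

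Levels are given as CPM, the expected count scaled to the library total, and differences as log2 fold changes from edgeR's quasi-likelihood model with their standard errors (SE, n = 3 per group). A gene was called when its Benjamini-Hochberg adjusted p over all 13678 genes tested was under 0.05. Library totals ran from 10257675 to 15176286 expected counts. The model also rescales the libraries by TMM, so its fold changes of MI against sham are lower than the ratio of plain CPM, by about the all-gene median shift of 0.24 log2 units in Cre-positive and 0.27 in Cre-negative hearts without that rescaling. Cardiomyocyte markers (Myh6, Tnnt2, Tnni3, Actn2, Ryr2) summed to 28484 to 71491 CPM over the 12 libraries. Yap1 averaged 98.2 CPM in Cre-positive MI, 102 CPM in Cre-negative MI, 99.5 CPM in Cre-positive sham and 108 CPM in Cre-negative sham hearts, and reads summed over the whole gene cannot show the loss of the floxed exon. The mean of Postn was 674 CPM in Cre-positive MI hearts, 1794 CPM in Cre-negative MI hearts, 7.69 CPM in Cre-positive sham hearts and 81.2 CPM in Cre-negative sham hearts. Y-linked genes were read above 10 CPM in 1 of 3 Cre-positive MI, 3 of 3 Cre-negative MI, 0 of 3 Cre-positive sham and 2 of 3 Cre-negative sham libraries. Sex was thus uneven between the genotypes after either surgery, and in the genotype comparisons it cannot be fully told apart from genotype. The part of sex in the results was not tested.

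A pair of sham libraries stood at opposite ends for these genes. Cre-positive sham 2 had the lowest of the 6 sham values in 34 of 39 genes (87.2%), against 33.7% of all genes tested. Cre-negative sham 2 had the highest of the 6 in 34 of 39 (87.2%), against 27.4% of all genes tested. Cre-positive sham 2 also had a macrophage marker sum of 68.4 CPM (178 to 266 CPM in the remaining 5 shams). Its cardiomyocyte marker sum was 36522 CPM (60495 to 71491 CPM in the others). Per transcript length and depth (FPKM), Myh6 stood at 2094 there, against 6355 to 7882 in the remaining 5 shams. Tnni3 and Ryr2 were also lowest there, while Tnnt2 and Actn2 were highest, so the sum does not speak for every cardiomyocyte marker. In Cre-negative sham 2 the macrophage sum, 266 CPM, was close to that of Cre-negative sham 3, 256 CPM. Results that rest on these libraries are given with and without them. They were singled out after their values were seen, in part by these same genes, so the smaller spread without them follows in part from the choice.

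**Figure D1:**
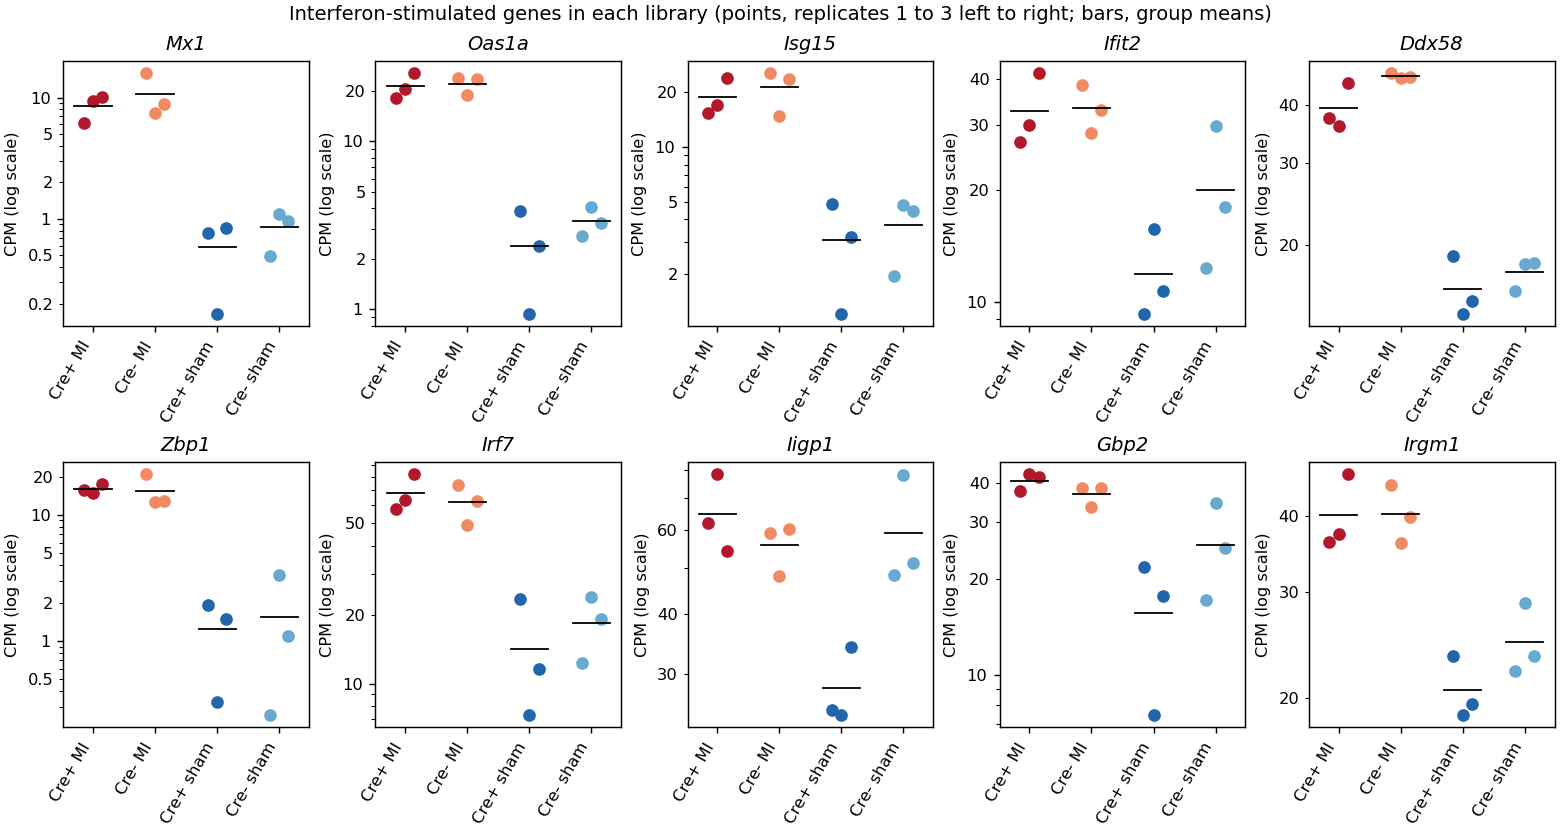
CPM on a log axis of 10 interferon-stimulated genes in each of the 12 libraries. Points are libraries, with replicates 1 to 3 from left to right in each group, and bars are group means. For Mx1, Oas1a, Isg15, Ddx58, Zbp1, Irf7 and Irgm1 every MI library lies above every sham library of its genotype, whereas for Ifit2, Iigp1 and Gbp2 Cre-negative sham 2 reaches the MI values.

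At day 4 after ligation the antiviral effectors were higher in both genotypes, and by more than the GTPases. In Cre-positive hearts 16 of 16 effectors rose (median log2 fold change 2.03) and 5 of 6 GTPases rose (median 0.86). In Cre-negative hearts 14 of 16 effectors rose (median 1.34) and 1 of 6 GTPases did (median 0.22). The median of all genes tested was 0.02 in both contrasts. The share of them called higher was 25.7% in Cre-positive and 29.9% in Cre-negative hearts. The 1 of 6 GTPases called in Cre-negative hearts lay below that share. Medians over genes chosen by role are descriptions and carry no test. In whole tissue, more cells of a type and more RNA per cell cannot be told apart.

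Over the whole list 37 of 39 genes rose and 0 fell in Cre-positive hearts, where 25.7% of all genes tested were called higher and 19.5% lower after MI. In Cre-negative hearts 28 of 39 rose and 0 fell, where 29.9% of all genes tested were called higher and 24.4% lower. Of these, 27 genes were called in both genotypes. By plain CPM the MI libraries lay above all sham libraries of the genotype for 39 of 39 genes in Cre-positive hearts (41.4% of all genes tested). In Cre-negative hearts this held for 33 of 39 (48.6% of all genes tested). The 6 that overlapped there were Ifit2 and 5 GTPases. Plain CPM sets MI libraries higher than the TMM scale of the model does, and overlap was not counted on the TMM scale. By plain CPM 1437 of 13678 genes were lower after MI without overlap in Cre-positive and 2596 in Cre-negative hearts. Without Cre-negative sham 1 the Cre-negative count of called genes was 18 of 39. Over the 12 fits that each left out 1 library it ran from 18 to 31. In the Cre-positive contrast the same fits gave 35 to 39. The authors' deposited tables, made with DESeq2, call 36 of the 39 genes higher after MI in Cre-positive and 30 in Cre-negative hearts.

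**Figure D2:**
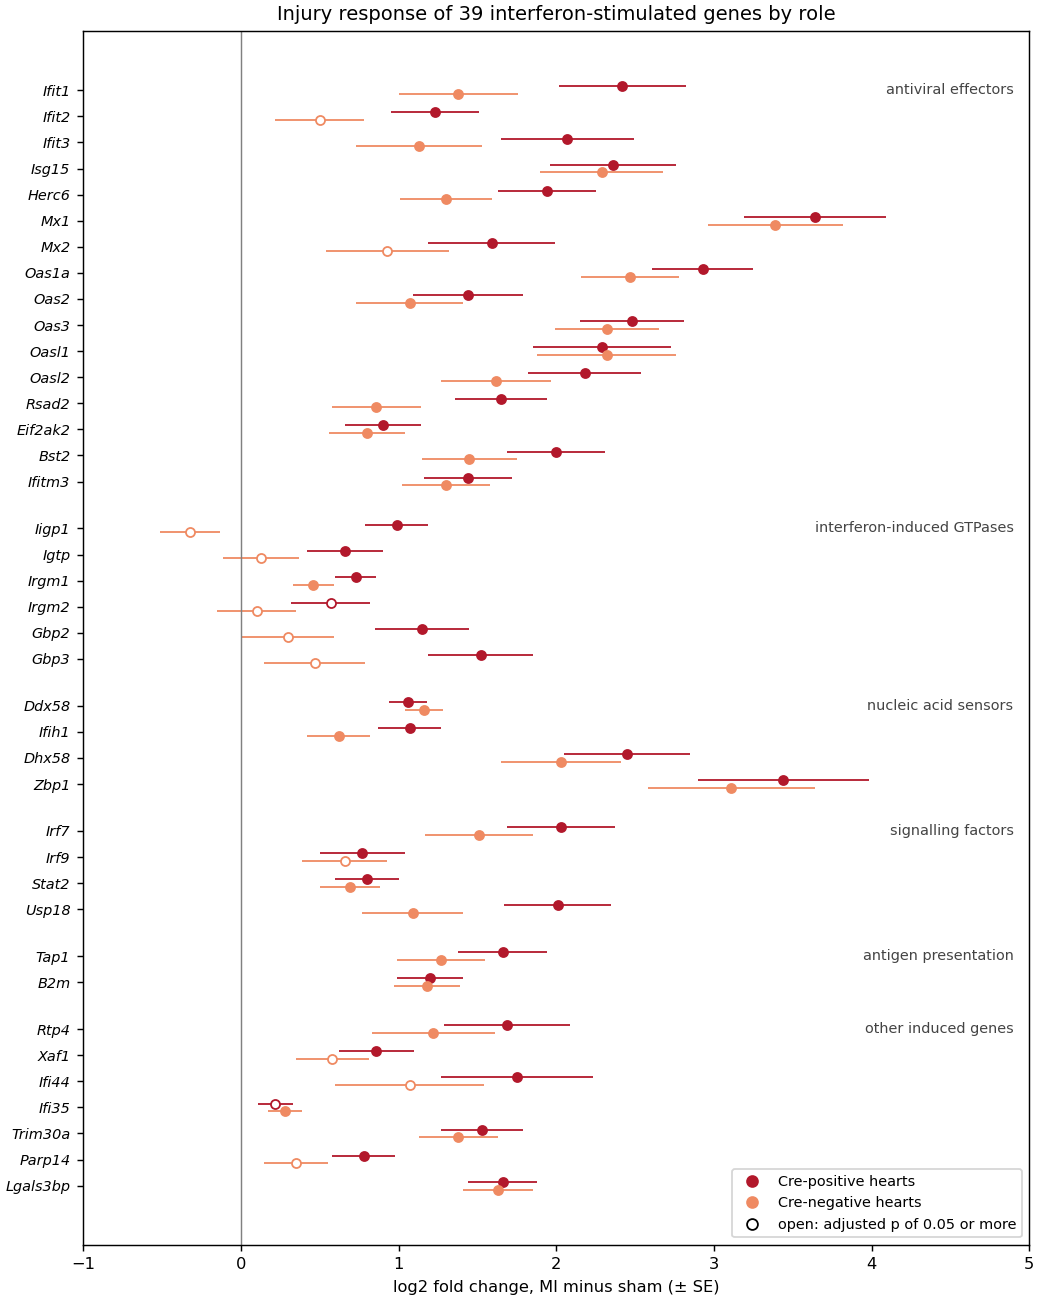
Log2 fold change of MI minus sham (x axis, with SE) for each of the 39 genes, grouped by role, in Cre-positive and in Cre-negative hearts. Filled points passed an adjusted p of 0.05 and open points did not. The effector points lie between 0.50 and 3.64 in both genotypes, and the GTPase points between -0.32 and 1.52.

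Mx1 (Entrez 17857, chromosome 16, 97447035 to 97462906) encodes a dynamin-like GTPase that blocks viral nucleocapsids and is counted here with the effectors. Mx1 had 6.15, 9.32 and 10.0 CPM in Cre-positive MI libraries, against 0.759, 0.164 and 0.843 CPM in Cre-positive sham libraries. In the Cre-negative groups Mx1 had 15.9, 7.46 and 8.81 CPM after MI and 0.497, 1.10 and 0.970 CPM after sham surgery. No MI library overlapped a sham library, and Mx1 had the largest log2 fold change of the 39 genes in both contrasts, 3.64 ± 0.45 (adjusted p = 4.79e-05) in Cre-positive and 3.39 ± 0.43 (adjusted p = 3.56e-05) in Cre-negative hearts. Its sham values were low, and in Cre-positive sham 2 Mx1 was below 0.245 CPM, the level of 3 counts in that library. Its relative Mx2, with 0.409 to 3.70 CPM over all libraries, rose in Cre-positive hearts (1.59 ± 0.40, adjusted p = 0.00676). In Cre-negative hearts the log2 fold change of Mx2 was 0.93 ± 0.39 (adjusted p = 0.0601), which passed the threshold without Cre-positive sham 2.

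The oligoadenylate synthetases make the messenger that activates RNase L. Oas1a (Entrez 246730, chromosome 5, 120896256 to 120907544) had 18.2, 20.4 and 25.4 CPM in Cre-positive MI libraries, against 3.84, 0.936 and 2.38 CPM in Cre-positive sham libraries. Oas1a had 23.7, 18.8 and 23.5 CPM after MI and 2.73, 4.06 and 3.25 CPM after sham surgery in the other genotype. The groups did not overlap, and Oas1a rose by 2.93 ± 0.32 (adjusted p = 1.82e-05) in Cre-positive and 2.47 ± 0.31 (adjusted p = 3.55e-05) in Cre-negative hearts on the log2 scale. Oas3 (Entrez 246727, chromosome 5, 120753098 to 120777684), the largest synthetase of the family, had 7.90, 9.05 and 15.4 CPM in Cre-positive MI libraries, against 1.92, 1.32 and 1.73 CPM in Cre-positive sham libraries. Oas3 had 15.7, 8.29 and 9.85 CPM after MI and 1.61, 2.54 and 1.59 CPM after sham surgery in Cre-negative hearts. It rose by 2.48 ± 0.33 and 2.32 ± 0.33 in Cre-positive and in Cre-negative hearts (adjusted p = 8.66e-05 and 8.89e-05). The lowest sham value of Oasl1 was 0.491 CPM, in Cre-positive sham 2, where 3 counts are 0.245 CPM. Oasl1 and Oasl2, the synthetase-like members, rose by 2.29 ± 0.44 and 2.18 ± 0.36 in Cre-positive hearts and by 2.32 ± 0.44 and 1.62 ± 0.35 in Cre-negative hearts. Oas2 rose by 1.44 ± 0.35 in Cre-positive and 1.07 ± 0.34 in Cre-negative hearts, and the Cre-negative call was lost without Cre-negative sham 1 or 3.

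Isg15 (Entrez 100038882, chromosome 4, 156199424 to 156200818) encodes a ubiquitin-like protein that is conjugated to newly made proteins. Isg15 had 15.3, 17.0 and 23.9 CPM in Cre-positive MI libraries, against 4.83, 1.2 and 3.18 CPM in Cre-positive sham libraries. In hearts without the recombinase Isg15 had 25.5, 14.8 and 23.7 CPM after MI and 1.96, 4.79 and 4.42 CPM after sham surgery. The MI libraries exceeded the sham libraries throughout, and the log2 fold change was 2.36 ± 0.40 in Cre-positive and 2.29 ± 0.39 in Cre-negative hearts (adjusted p = 0.00046 and 0.000369). Herc6, the ligase that attaches the ISG15 protein in mice, rose by 1.94 ± 0.31 in Cre-positive and 1.30 ± 0.29 in Cre-negative hearts. Bst2 (Entrez 69550, chromosome 8, 71534255 to 71537472) encodes tetherin, which holds budding virions at the cell surface. Bst2 had 46.8, 44.6 and 61.8 CPM in Cre-positive MI libraries, against 16.2, 5.40 and 11.0 CPM in Cre-positive sham libraries. The Cre-negative groups had 58.1, 46.3 and 49.8 CPM after MI and 10.9, 21.0 and 16.1 CPM after sham surgery for Bst2. Tetherin transcripts rose by 2.0 ± 0.31 (adjusted p = 0.000231) and 1.45 ± 0.30 (adjusted p = 0.00139) on the log2 scale in Cre-positive and in Cre-negative hearts. Bst2 is also a marker of plasmacytoid dendritic cells and stands in their marker list.

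The IFIT proteins bind viral RNA that lacks host cap marks, and their genes lie side by side on chromosome 19. Ifit1 rose by 2.42 ± 0.40 in Cre-positive hearts and 1.38 ± 0.38 in Cre-negative hearts (adjusted p = 0.000435 and 0.00817). Ifit3 rose by 2.07 ± 0.42 and 1.13 ± 0.40 in Cre-positive and in Cre-negative hearts, and its Cre-negative call (adjusted p = 0.0318) was lost in 4 of the 12 fits that left out a library, those without Cre-negative MI 1 or 3 or Cre-negative sham 1 or 3. Ifit2 differed from both. Ifit2 had 26.9, 29.9 and 41.4 CPM in Cre-positive MI libraries, against 9.26, 15.7 and 10.7 CPM in Cre-positive sham libraries. In the Cre-negative groups Ifit2 had 38.4, 28.6 and 33.0 CPM after MI and 12.4, 29.7 and 18.0 CPM after sham surgery. Cre-negative sham 2 was above Cre-negative MI 2. Ifit2 rose in Cre-positive hearts (1.23 ± 0.28, adjusted p = 0.00374), while in Cre-negative hearts its log2 fold change was 0.50 ± 0.28 (adjusted p = 0.141), which was called without Cre-negative sham 2.

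The other 3 effectors rose in both genotypes. Rsad2, whose product viperin makes a chain-terminating nucleotide, rose by 1.65 ± 0.29 and 0.86 ± 0.28 in Cre-positive and in Cre-negative hearts. Eif2ak2, the RNA-activated kinase PKR, rose by 0.90 ± 0.24 and 0.80 ± 0.24. Ifitm3, a membrane protein that blocks virus entry and the effector with the highest level per length, rose by 1.44 ± 0.28 and 1.30 ± 0.28. In Cre-negative hearts the call of Rsad2 was lost without Cre-negative MI 1 or Cre-negative sham 1, and that of Eif2ak2 without Cre-negative sham 1.

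The GTPases had lower medians than the effectors in both genotypes, and in Cre-negative hearts the sham and MI libraries of 5 of 6 overlapped. Iigp1 (Entrez 60440), an immunity-related GTPase, had 62.1, 78.4 and 54.2 CPM in Cre-positive MI libraries, against 25.3, 24.6 and 34.2 CPM in Cre-positive sham libraries. The Cre-negative groups had 59.1, 48.2 and 60.3 CPM after MI and 48.3, 78.0 and 51.3 CPM after sham surgery for Iigp1. All Cre-positive MI libraries exceeded all Cre-positive sham libraries, while Cre-negative sham 2 was above the 3 Cre-negative MI libraries. Iigp1 rose in Cre-positive hearts (0.99 ± 0.20, adjusted p = 0.00149). In Cre-negative hearts its log2 fold change was -0.32 ± 0.19 (adjusted p = 0.182), the only negative value among the 39 genes in either injury contrast.

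Irgm1 (Entrez 15944, chromosome 11, 48865245 to 48871420), which regulates the other immunity-related GTPases, was the GTPase called in both genotypes. Irgm1 had 36.3, 37.4 and 47.0 CPM in Cre-positive MI libraries, against 23.5, 18.7 and 19.6 CPM in Cre-positive sham libraries. With an intact Postn locus Irgm1 had 45.1, 36.1 and 39.9 CPM after MI and 22.2, 28.7 and 23.5 CPM after sham surgery. No MI library overlapped a sham library of its genotype, and the log2 fold change was 0.73 ± 0.13 (adjusted p = 0.000833) in Cre-positive and 0.46 ± 0.13 (adjusted p = 0.0112) in Cre-negative hearts. The Cre-negative call was lost without Cre-negative sham 1 or 3. Irgm2 and Igtp (Entrez 16145, chromosome 11, 58199556 to 58207592) are related effector GTPases encoded near each other on chromosome 11. Igtp rose in Cre-positive hearts (0.66 ± 0.24, adjusted p = 0.0411), and that call was lost in 9 of the 12 fits that left out a library, all except those without Cre-positive sham 1 or Cre-negative sham 1 or 2. Irgm2 had a log2 fold change of 0.57 ± 0.25 in Cre-positive hearts (adjusted p = 0.0859), which was called without Cre-positive sham 1 or Cre-negative sham 2. In Cre-negative hearts Igtp had 0.13 ± 0.24 (adjusted p = 0.657) and Irgm2 had 0.10 ± 0.25 (adjusted p = 0.757) on the log2 scale.

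The guanylate-binding proteins coat and break open microbe-containing compartments. Gbp2 (Entrez 14469, chromosome 3, 142620663 to 142638008) had 37.5, 42.5 and 41.7 CPM in Cre-positive MI libraries, against 21.7, 7.45 and 17.6 CPM in Cre-positive sham libraries. In Cre-negative hearts Gbp2 had 38.4, 33.6 and 38.4 CPM after MI and 17.1, 34.4 and 24.9 CPM after sham surgery. Only the Cre-positive groups stood clear of each other, and Cre-negative sham 2 lay above Cre-negative MI 2. Gbp2 rose by 1.15 ± 0.30 in Cre-positive hearts (adjusted p = 0.00755), while its log2 fold change in Cre-negative hearts was 0.30 ± 0.29 (adjusted p = 0.413). Gbp3 (Entrez 55932, chromosome 3, 142560016 to 142573213) had 22.2, 23.8 and 27.8 CPM in Cre-positive MI libraries, against 8.65, 3.43 and 10.0 CPM in Cre-positive sham libraries. Gbp3 had 26.9, 19.3 and 25.8 CPM after MI and 8.98, 21.3 and 13.9 CPM after sham surgery in Cre-negative hearts. It rose by 1.52 ± 0.33 in Cre-positive hearts (adjusted p = 0.00281), the largest log2 fold change among the GTPases, against 0.47 ± 0.32 in Cre-negative hearts (adjusted p = 0.226). Expected counts were fractional in at least 1 library for 23 of the 39 genes, all 6 GTPases and most effectors among them, as RSEM gives for reads that match more than 1 gene, so their levels carry the uncertainty of that split.

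Summed over each class, the 6 GTPases had 218, 234 and 232 CPM in Cre-positive MI libraries and 226, 199 and 221 CPM in Cre-negative MI libraries. The same sum was 121, 76.5 and 115 CPM in Cre-positive sham libraries and 130, 231 and 149 CPM in Cre-negative sham libraries. Cre-negative sham 2 thus lay above every MI library of its own genotype for this class, and within the range of the Cre-positive MI libraries. The 16 effectors summed to 592, 587 and 773 CPM in Cre-positive MI and 785, 627 and 705 CPM in Cre-negative MI libraries. In sham libraries the effector sum was 218, 104 and 194 CPM with the recombinase and 158, 340 and 238 CPM without it. No sham library reached the MI range for the effectors, although Cre-negative sham 2 was again the highest. The spread of the GTPase sum among the 3 MI libraries was small, 228 ± 8.78 CPM in Cre-positive and 215 ± 14.6 CPM in Cre-negative hearts, against 104 ± 24.2 CPM in Cre-positive sham and 170 ± 53.8 CPM in Cre-negative sham hearts (SD, n = 3).

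**Figure D3:**
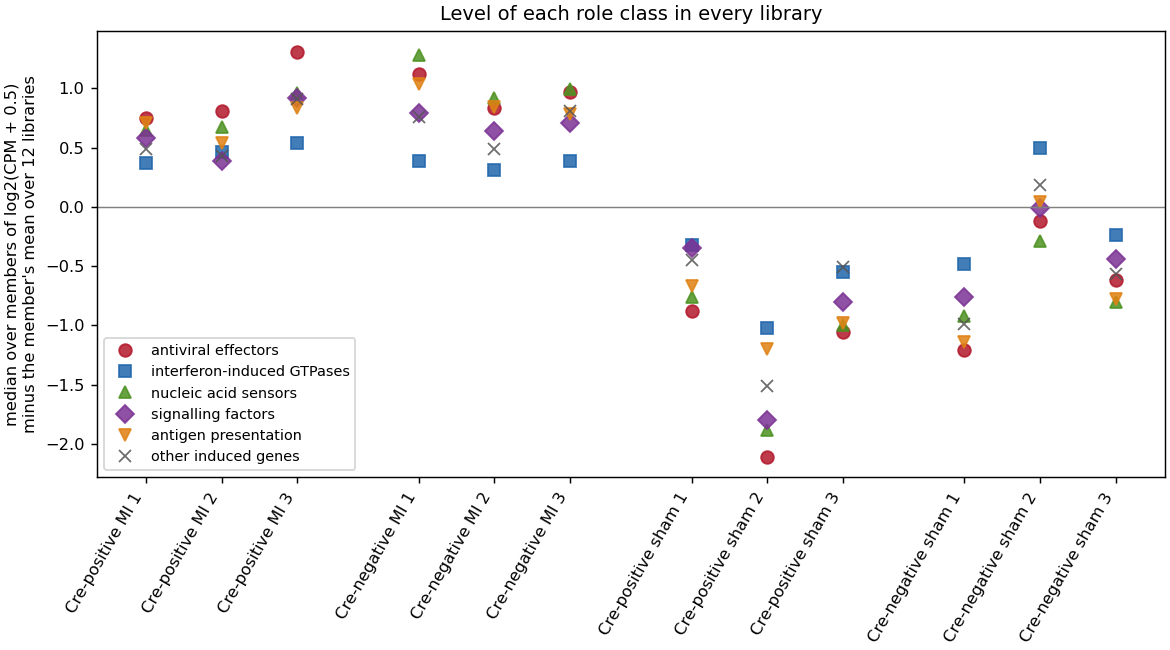
Median over the members of each role class of log2(CPM + 0.5) minus the member's own mean over the 12 libraries (y axis), for each library (x axis). The GTPase squares lie nearer to 0 than the effector circles in 11 of the 12 libraries, the exception being Cre-negative sham 2, where the GTPases stand at 0.50 and the effectors at -0.12.

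Leaving out the extreme sham libraries changed the GTPase calls in Cre-negative hearts and not the order of the medians. Without both sham libraries numbered 2, 5 of 6 GTPases and 16 of 16 effectors were called in Cre-negative hearts, with medians of 0.49 and 1.66. In Cre-positive hearts the counts were then 5 of 6 and 16 of 16, with medians of 0.71 and 1.68. Without Cre-negative sham 2 alone, 1 of 6 GTPases was called in Cre-negative hearts (median 0.49). The median was the same in both fits, so the 5 calls do not mark a larger change. They came when Cre-positive sham 2, which is not in this contrast, was left out as well. Without Cre-negative sham 1 or without Cre-negative sham 3 0 of 6 were called there, with medians of 0.00 and 0.13. The GTPase median stayed below the effector median in both genotypes in these fits. Over the whole list 37 of 39 genes were called in each genotype without both libraries. The share of all genes called in that fit is not given here, so these counts cannot be set against it.

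**Figure D4:**
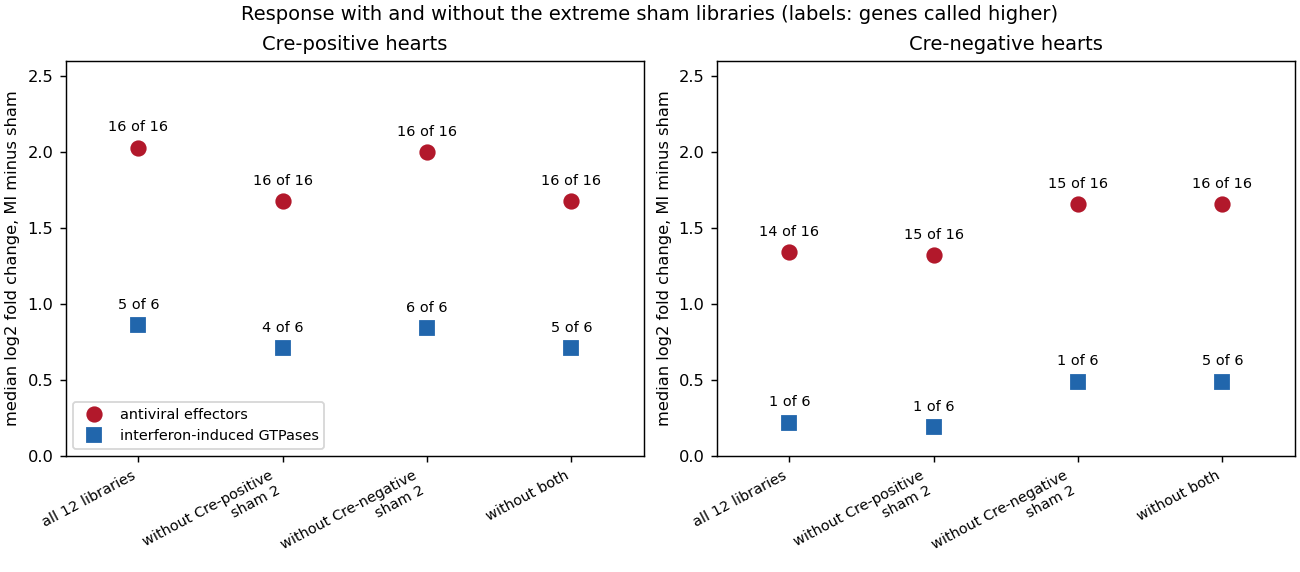
Median log2 fold change of MI minus sham (y axis) of the 16 effectors and the 6 GTPases in fits with all 12 libraries, without either sham library numbered 2 and without both. Numbers beside the points count the genes called higher, and in Cre-negative hearts the GTPase count is 1 of 6 with all libraries and 5 of 6 without both.

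Per length, the GTPases stood above the effectors by median in all 4 groups. FPKM, a read level divided by transcript length and depth, of the GTPases had a median of 13.3 in Cre-positive MI hearts, 12.7 in Cre-negative MI hearts, 6.09 in Cre-positive sham hearts and 9.35 in Cre-negative sham hearts. For the effectors it was 8.88 in Cre-positive MI hearts, 8.93 in Cre-negative MI hearts, 2.38 in Cre-positive sham hearts and 3.48 in Cre-negative sham hearts. The GTPases held ranks 4 to 16 of the 39 genes in Cre-negative sham hearts, and ranks 9 to 25 in Cre-negative MI hearts. The effectors spread from rank 2 (Ifitm3) to rank 39 in every group. B2m was first, followed by Ifitm3 and then Lgals3bp in all 4 groups, with mean FPKM of 594, 399 and 80.7 in Cre-positive MI hearts. Mx1 was last in both sham groups, at 0.18 FPKM in Cre-positive sham and 0.263 FPKM in Cre-negative sham hearts.

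The 4 sensors, which detect viral nucleic acid inside the cell, rose in both genotypes (median 1.76 in Cre-positive and 1.59 in Cre-negative hearts). The share of all genes tested called higher was 25.7% in Cre-positive and 29.9% in Cre-negative hearts. Ddx58 (Entrez 230073, chromosome 4, 40203777 to 40239825), the RNA helicase RIG-I, had 37.5, 36.0 and 44.7 CPM in Cre-positive MI libraries, against 19.0, 14.2 and 15.2 CPM in Cre-positive sham libraries. Ddx58 had 46.9, 45.8 and 46.1 CPM after MI and 15.9, 18.2 and 18.3 CPM after sham surgery in Cre-negative hearts. Its groups were far apart relative to their spread, and it had the smallest adjusted p of the 39 genes in the Cre-negative contrast (1.16 ± 0.12, adjusted p = 7.28e-06), beside 1.06 ± 0.12 in Cre-positive hearts (adjusted p = 2.28e-05). Zbp1 (Entrez 58203, chromosome 2, 173206612 to 173218959), a sensor of left-handed nucleic acid that can start necroptosis, had 15.6, 14.8 and 17.6 CPM in Cre-positive MI libraries, against 1.91, 0.327 and 1.5 CPM in Cre-positive sham libraries. Zbp1 had 20.9, 12.7 and 12.9 CPM after MI and 0.256, 3.31 and 1.10 CPM after sham surgery in Cre-negative hearts. It had the second largest change of the list, 3.44 ± 0.54 in Cre-positive and 3.11 ± 0.53 in Cre-negative hearts (adjusted p = 0.000274 and 0.000363). Its lowest sham values were those of Cre-negative sham 1 and Cre-positive sham 2.

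Dhx58 (Entrez 80861, chromosome 11, 100694884 to 100704271), the RIG-I relative LGP2, had 9.47, 10.1 and 12.4 CPM in Cre-positive MI libraries, against 2.5, 0.491 and 1.97 CPM in Cre-positive sham libraries. Dhx58 had 18.7, 11.4 and 12.5 CPM after MI and 2.13, 4.58 and 2.19 CPM after sham surgery in Cre-negative hearts. The MI and sham libraries did not overlap, and Dhx58 rose by 2.45 ± 0.40 and 2.03 ± 0.38 in Cre-positive and in Cre-negative hearts. Ifih1 (Entrez 71586, chromosome 2, 62595618 to 62646255), the helicase MDA5, had 19.8, 19.0 and 23 CPM in Cre-positive MI libraries, against 9.33, 5.81 and 9.93 CPM in Cre-positive sham libraries. Ifih1 had 24.4, 20.2 and 20.8 CPM after MI and 8.70, 15.3 and 12.2 CPM after sham surgery in Cre-negative hearts. It rose by 1.07 ± 0.20 (adjusted p = 0.00101) in Cre-positive and 0.62 ± 0.20 (adjusted p = 0.0186) in Cre-negative hearts, and the second call was lost without Cre-negative MI 1 or Cre-negative sham 1 or 3.

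Among the signalling factors, Irf7 (Entrez 54123, chromosome 7, 141263183 to 141266499) encodes the transcription factor that amplifies interferon production. Irf7 had 57.8, 63.4 and 81.9 CPM in Cre-positive MI libraries, against 23.4, 7.28 and 11.6 CPM in Cre-positive sham libraries. The Cre-negative groups had 73.4, 49.5 and 62.7 CPM after MI and 12.3, 23.8 and 19.1 CPM after sham surgery for Irf7. It rose without overlap by 2.03 ± 0.34 in Cre-positive and 1.51 ± 0.34 in Cre-negative hearts (adjusted p = 0.00047 and 0.00232). Usp18 (Entrez 24110, chromosome 6, 121245906 to 121270917) removes ISG15 from proteins and dampens the type I receptor. Usp18 had 9.76, 8.60 and 14.4 CPM in Cre-positive MI libraries, against 3.31, 0.982 and 2.62 CPM in Cre-positive sham libraries. Usp18 had 12.2, 11.0 and 10.6 CPM after MI and 2.98, 5.85 and 4.67 CPM after sham surgery in Cre-negative hearts. It rose by 2.01 ± 0.34 in Cre-positive and 1.09 ± 0.32 in Cre-negative hearts (adjusted p = 0.000479 and 0.0119).

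Stat2 and Irf9, which encode ISGF3 subunits, moved less. Stat2 (Entrez 20847, chromosome 10, 128270498 to 128292853) had 35.2, 33.4 and 44.0 CPM in Cre-positive MI libraries, against 22.9, 13.3 and 19.0 CPM in Cre-positive sham libraries. Stat2 had 42.8, 43.8 and 43.1 CPM after MI and 17.9, 30.0 and 20.1 CPM after sham surgery in Cre-negative hearts. It rose by 0.80 ± 0.20 in Cre-positive and 0.69 ± 0.19 in Cre-negative hearts, and the Cre-negative calls of Stat2 and Usp18 were lost without Cre-negative sham 1. Irf9 (Entrez 16391, chromosome 14, 55603985 to 55610030) had 35.7, 30.9 and 36.8 CPM in Cre-positive MI libraries, against 23.9, 8.21 and 19.9 CPM in Cre-positive sham libraries. Irf9 had 37.1, 39.4 and 39.6 CPM after MI and 17.6, 25.3 and 19.4 CPM after sham surgery in Cre-negative hearts. It rose in Cre-positive hearts (0.77 ± 0.27, adjusted p = 0.0351), a call lost in 7 of the 12 fits that left out a library, namely without any 1 Cre-positive MI or Cre-negative sham library or without Cre-positive sham 3. In Cre-negative hearts Irf9 had a log2 fold change of 0.66 ± 0.27 (adjusted p = 0.0546). That value was called without Cre-positive sham 1 or 2 and by DESeq2, and its adjusted p reached 0.183 in other alternatives. The authors' deposited DESeq2 tables give Irf9 an adjusted p of 0.109 in Cre-positive and 6.29e-05 in Cre-negative hearts.

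Both genes of antigen presentation rose in both genotypes, where 25.7% (Cre-positive) and 29.9% (Cre-negative) of all genes tested were called higher. B2m (Entrez 12010, chromosome 2, 122147687 to 122153082), the light chain of class I molecules, had 503, 425 and 563 CPM in Cre-positive MI libraries, against 191, 171 and 193 CPM in Cre-positive sham libraries. B2m had 586, 625 and 566 CPM after MI and 142, 326 and 200 CPM after sham surgery in Cre-negative hearts. It rose by 1.2 ± 0.21 and 1.18 ± 0.21 in Cre-positive and in Cre-negative hearts (adjusted p = 0.000653 and 0.000512). Tap1 (Entrez 21354, chromosome 17, 34187556 to 34197225), a subunit of the peptide transporter, had 32.4, 30.2 and 34.5 CPM in Cre-positive MI libraries, against 12.2, 6.33 and 7.67 CPM in Cre-positive sham libraries. Tap1 had 44.5, 31.1 and 31.8 CPM after MI and 8.45, 19.6 and 9.92 CPM after sham surgery in Cre-negative hearts. It rose by 1.66 ± 0.28 in Cre-positive and 1.27 ± 0.28 in Cre-negative hearts.

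Of the 7 other induced genes, 6 rose in Cre-positive and 4 in Cre-negative hearts, against 25.7% and 29.9% of all genes tested. Lgals3bp (Entrez 19039, chromosome 11, 118392747 to 118401959), a secreted galectin ligand, had 184, 160 and 182 CPM in Cre-positive MI libraries, against 59.6, 31.4 and 51.2 CPM in Cre-positive sham libraries. Lgals3bp had 224, 189 and 192 CPM after MI and 42.2, 75.2 and 48.4 CPM after sham surgery in Cre-negative hearts. It rose by 1.66 ± 0.22 and 1.63 ± 0.22 in Cre-positive and in Cre-negative hearts (adjusted p = 7.02e-05 and 5.08e-05). Trim30a (Entrez 20128, chromosome 7, 104409025 to 104465193), a mouse TRIM protein that limits inflammatory signalling, had 25.3, 24.2 and 38.1 CPM in Cre-positive MI libraries, against 10.3, 5.94 and 9.68 CPM in Cre-positive sham libraries. Trim30a had 39.3, 33.1 and 37.1 CPM after MI and 8.74, 17.3 and 9.79 CPM after sham surgery in Cre-negative hearts. It rose without overlap by 1.53 ± 0.26 in Cre-positive and 1.38 ± 0.25 in Cre-negative hearts. Rtp4 (Entrez 67775, chromosome 16, 23520219 to 23614222), a receptor chaperone, had 24.6, 23.4 and 32.5 CPM in Cre-positive MI libraries, against 10.6, 3.11 and 7.58 CPM in Cre-positive sham libraries. Rtp4 had 33.5, 26.8 and 26.0 CPM after MI and 4.95, 17.7 and 8.96 CPM after sham surgery in Cre-negative hearts. It rose by 1.69 ± 0.40 and 1.22 ± 0.39 in Cre-positive and in Cre-negative hearts, with the Cre-negative call lost without Cre-negative MI 1 or Cre-negative sham 1 or 3.

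Parp14 (Entrez 547253, chromosome 16, 35831892 to 35871518), an ADP-ribosyltransferase, had 41.1, 39.5 and 53.6 CPM in Cre-positive MI libraries, against 24.5, 16.4 and 25.6 CPM in Cre-positive sham libraries. Parp14 had 46.6, 47.6 and 43.0 CPM after MI and 23.8, 41.8 and 25.9 CPM after sham surgery in Cre-negative hearts. It rose in Cre-positive hearts (0.78 ± 0.20, adjusted p = 0.00721), while its Cre-negative log2 fold change was 0.35 ± 0.20 (adjusted p = 0.156), which was called without Cre-negative sham 2. Xaf1, which promotes cell death, and Ifi44 rose in Cre-positive hearts (0.86 ± 0.24 and 1.75 ± 0.48). In Cre-negative hearts Xaf1 had 0.58 ± 0.23 (adjusted p = 0.0533) and Ifi44 had 1.07 ± 0.47 (adjusted p = 0.0694), and each was called without Cre-positive sham 2 or without Cre-negative sham 2. Ifi35 (Entrez 70110, chromosome 11, 101448412 to 101458701) had the smallest Cre-positive change of the list. Ifi35 had 21.9, 20.9 and 23.4 CPM in Cre-positive MI libraries, against 18.3, 16.1 and 14.1 CPM in Cre-positive sham libraries. Ifi35 had 22.9, 25.2 and 23.7 CPM after MI and 15.4, 18.1 and 16.3 CPM after sham surgery in Cre-negative hearts. Its log2 fold change was 0.22 ± 0.11 in Cre-positive (adjusted p = 0.128) and 0.28 ± 0.11 in Cre-negative hearts (adjusted p = 0.0483), and the Cre-negative call was lost in 9 of the 12 fits that left out a library.

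Between genotypes after MI, none of the 39 genes was called by edgeR, as for all genes tested (0% called). At an unadjusted p under 0.05 the count was 0 of 39 members and 1726 of 13678 genes, and DESeq2 called 0 members and 177 genes. The authors' deposited DESeq2 table for this comparison calls 763 of its 17182 genes and 0 of the 39. Log2 fold changes of Cre-positive minus Cre-negative hearts ran from -0.34 to 0.29 with a median of -0.02. The width of the 95% intervals differed by gene, with the lowest bound at -1.07 (Dhx58) and the highest at 1.17 (Ifi44), while that of Irgm1 ran from -0.22 to 0.35. The effector median was -0.01 and the GTPase median 0.10. Cre-positive libraries lay below all Cre-negative libraries in 4 of 39 genes, against 21.2% of all genes tested. Macrophage markers summed to 1224 to 1443 CPM in Cre-positive MI and 1765 to 2025 CPM in Cre-negative MI libraries, whereas the sums of the 39 genes overlapped, at 1785 to 2242 CPM in Cre-positive MI libraries and 2062 to 2313 CPM in Cre-negative ones.

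After sham surgery 38 of 39 genes had a negative log2 fold change of Cre-positive minus Cre-negative hearts, and none was called (7 of 13678 genes were called lower, 0.0512%). The median was -0.44, while that of all genes tested was near 0, and the values ran from -1.02 to 0.01 with 95% intervals from -1.87 to 1.24. At an unadjusted p under 0.05 the count was 8 of 39 members and 1123 of 13678 genes. Iigp1 had the largest difference. Its 3 Cre-positive sham libraries (25.3, 24.6 and 34.2 CPM) lay below its 3 Cre-negative sham libraries (48.3, 78.0 and 51.3 CPM), and it was the only one of the 39 genes without overlap, against 6.66% of all genes tested lower without overlap. Iigp1 had a log2 fold change of -1.02 ± 0.20 (95% interval -1.45 to -0.59, adjusted p = 0.198). DESeq2 called it, and in the authors' deposited table it has a log2 fold change of -1.02 with an adjusted p of 0.0146. Without both sham libraries numbered 2 the medians between genotypes were 0.07 for effectors and -0.05 for GTPases, against -0.50 and -0.55 with all libraries.

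The difference between the injury responses of the genotypes, Cre-positive minus Cre-negative, was called for none of the 39 genes by edgeR (0% of all genes tested). At an unadjusted p under 0.05 there were 2 of 39 members, Iigp1 and Gbp3, and 1116 of 13678 genes. DESeq2 called 1 member, Iigp1, and 34 genes. The median difference was 0.43, with 0.51 for effectors and 0.69 for GTPases and 0.01 for all genes tested. Iigp1 had 1.31 ± 0.28 (95% interval 0.71 to 1.91, adjusted p = 0.496) and Gbp3 had 1.04 ± 0.46 (adjusted p = 0.606). Without both sham libraries numbered 2 the class medians were -0.06 for effectors and 0.20 for GTPases. The higher count of calls in Cre-positive than in Cre-negative hearts is therefore not shown to be a difference between the genotypes.

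Outside the 39 genes, further GTPases were called about as often as genes in general, or less. Of 13 listed, 10 were tested, and 3 rose and 0 fell in Cre-positive hearts (median 0.53), while 1 rose and 1 fell in Cre-negative hearts (median -0.36). Of all genes tested 25.7% were called higher and 19.5% lower in Cre-positive hearts, and 29.9% higher and 24.4% lower in Cre-negative hearts. Ifi47, an immunity-related GTPase, rose by 1.61 ± 0.30 in Cre-positive and 1.55 ± 0.30 in Cre-negative hearts (adjusted p = 0.000973 and 0.000874). Gbp7 rose in Cre-positive hearts (1.26 ± 0.27, adjusted p = 0.00241), and so did the giant GTPase gene Gvin1 (2.25 ± 0.62, adjusted p = 0.0105). Gvin1 had 28.2, 29.0 and 58.8 CPM in Cre-positive MI against 10.4, 6.17 and 3.96 CPM in Cre-positive sham libraries. In Cre-negative hearts Gvin1 had 26.9, 39.3 and 40.4 CPM after MI and 8.15, 65.8 and 18.5 CPM after sham surgery, so that its highest value was Cre-negative sham 2. Tgtp1, a T cell specific GTPase gene by name, had a log2 fold change of -1.71 ± 0.39 in Cre-negative hearts (adjusted p = 0.00301). Its close copy Tgtp2 had -0.12 ± 0.46 there (adjusted p = 0.84), and reads shared by both could be split either way, so the fall of Tgtp1 is uncertain. The 3 GTPases under the count filter were Gbp8 with 49, Gbp11 with 29 and Gbp2b with 5 reads over the 12 libraries.

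Of 30 further antiviral effectors tested, 24 rose in Cre-positive hearts (median 1.01) and 19 in Cre-negative hearts (median 0.91), and 0 fell. Among all genes tested, 25.7% were called higher and 19.5% lower in Cre-positive hearts, and 29.9% and 24.4% in Cre-negative hearts. Ifi204, a DNA sensor of the mouse, rose by 3.05 ± 0.25 and 2.5 ± 0.23 in Cre-positive and in Cre-negative hearts. Ifi30, a lysosomal thiol reductase, rose by 2.86 ± 0.22 and 2.82 ± 0.22. Apobec3, a cytidine deaminase that restricts retroviruses, rose by 1.59 ± 0.17 and 1.91 ± 0.18, and Samhd1, which depletes nucleotides, by 0.90 ± 0.11 and 0.90 ± 0.11. In the further lists the effector median again lay above the GTPase median in both genotypes. These lists were chosen with earlier results of these data known and were read in the same libraries. The shared order is therefore not independent support.

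Few reads were found for the interferon ligands that could be examined. Of 21 interferon genes listed, 4 had reads, with 3 for Ifng, 1 for Ifna16, 1 for Ifnab and 12 for Ifnz over the 12 libraries, and the other 17, Ifnb1 among them, were not analysed here. Among 9 receptor chains and kinases 3 rose and 2 fell in Cre-positive hearts, and 3 rose and 4 fell in Cre-negative hearts. Of all genes tested 25.7% rose and 19.5% fell in Cre-positive hearts, and 29.9% rose and 24.4% fell in Cre-negative hearts. The type I receptor chains Ifnar1 (0.44 ± 0.10 and 0.75 ± 0.10) and Ifnar2 (0.54 ± 0.09 and 0.50 ± 0.09) rose in Cre-positive and in Cre-negative hearts. Ifngr1, the ligand-binding chain for interferon gamma, rose by 0.56 ± 0.11 and 0.53 ± 0.11, and Il10rb fell by 0.71 ± 0.11 and 0.85 ± 0.11 on the log2 scale.

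Of 11 transcription factors and feedback regulators 6 rose in Cre-positive and 5 in Cre-negative hearts, and 0 fell. Among all genes tested, 25.7% were called higher and 19.5% lower in Cre-positive hearts, and 29.9% and 24.4% in Cre-negative hearts. Irf8 and Irf5, factors of myeloid cells, rose by 1.66 ± 0.14 and 2.60 ± 0.22 in Cre-positive hearts and by 2.2 ± 0.14 and 2.58 ± 0.22 in Cre-negative hearts. The feedback inhibitors Socs1 and Socs3 rose by 2.07 ± 0.41 and 1.66 ± 0.22 in Cre-positive hearts and by 2.01 ± 0.40 and 2.48 ± 0.23 in Cre-negative hearts. Irf1, a factor induced through the GAS, had 0.19 ± 0.13 in both genotypes (adjusted p = 0.273 in Cre-positive and 0.247 in Cre-negative hearts). Of 12 genes of upstream sensing 6 rose and 1 fell in Cre-positive hearts, and 8 rose and 1 fell in Cre-negative hearts. Ikbke, a kinase that activates IRF factors, rose by 2.88 ± 0.25 and 2.68 ± 0.23, and Tmem173, which encodes STING, by 1.74 ± 0.24 and 2.07 ± 0.24. Mavs, the adaptor of RIG-I, fell by 0.68 ± 0.16 in Cre-positive and 0.63 ± 0.16 in Cre-negative hearts.

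Cell type markers moved with the injury response. The 8 macrophage and monocyte markers summed to 1224 to 1443 CPM in Cre-positive MI and 1765 to 2025 CPM in Cre-negative MI libraries, against 68.4 to 249 CPM in Cre-positive sham and 220 to 266 CPM in Cre-negative sham libraries, and 8 of 8 rose in both genotypes. Neutrophil markers summed to 26.4 to 57.6 CPM in Cre-positive MI and 50.0 to 102 CPM in Cre-negative MI libraries, against 14.2 to 19.5 CPM in Cre-positive sham and 8.37 to 21.9 CPM in Cre-negative sham libraries. T and NK cell markers reached at most 7.65 CPM and B cell markers at most 9.62 CPM in any library. The plasmacytoid dendritic cell list, which includes Bst2, summed to 186 to 232 CPM in Cre-positive MI and 199 to 214 CPM in Cre-negative MI libraries, against 85.6 to 94.0 CPM in Cre-positive sham and 101 to 133 CPM in Cre-negative sham libraries. The 5 fibroblast markers, which include Postn, altered in Cre-positive mice, summed to 5595 to 6359 CPM in Cre-positive MI and 8303 to 9354 CPM in Cre-negative MI libraries, against 686 to 723 CPM in Cre-positive sham and 961 to 1136 CPM in Cre-negative sham libraries, and 4 of 5 rose in both genotypes. The 5 cardiomyocyte markers summed to 38518 to 45537 CPM in Cre-positive MI and 28484 to 35788 CPM in Cre-negative MI libraries, against 36522 to 71491 CPM in Cre-positive sham and 60495 to 65844 CPM in Cre-negative sham libraries. Of these, 3 of 5 fell in Cre-positive and 5 of 5 in Cre-negative hearts. Among all genes tested, 25.7% were called higher and 19.5% lower in Cre-positive hearts, and 29.9% and 24.4% in Cre-negative hearts. Endothelial markers stayed between 628 and 929 CPM in the 12 libraries. Such sums follow the most abundant markers. Col1a1 averaged 732 FPKM in Cre-positive MI and 1052 FPKM in Cre-negative MI hearts, against 16.9 and 50.8 FPKM after sham surgery. The median log2 fold change of the 5 fibroblast markers was 0.67 in Cre-positive and 0.51 in Cre-negative hearts. After MI 4 of 5 were lower in Cre-positive than in Cre-negative hearts, and Dcn was higher (430 against 402 FPKM). In the plasmacytoid dendritic cell list Bst2 and Tcf4 averaged 60.5 and 20.6 FPKM in Cre-positive MI hearts, against 1.62 for Ly6d and 0.4 for Siglech. The sum of that list therefore reflects Bst2 and Tcf4. No listed marker was at 0 in all libraries of a group. The part of these cell types in the results was not tested.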

How the data were processed

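The submitters' processing notes name Bowtie2 2.2.5, RSEM 1.2.12 and the build mm10. The authors deposited, per the file headers, an expected count per gene for each library, the RSEM estimate of reads from that gene. The deposited FPKM values, per the file headers, relate those reads to transcript length and sequencing depth. The authors' deposited comparison tables, named for DESeq2, give log2 fold changes and adjusted p-values, which are quoted only where named.

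Here expected counts, of which 74% were already whole, were rounded to whole numbers. Counts were tested in R 4.3.3 with edgeR 4.0.16. The filter filterByExpr (minimum count 10) left 13678 genes and removed 3793, TMM factors ran from 0.893 to 1.14, and the quasi-likelihood model had 1 coefficient per group over all 12 libraries (8 residual degrees of freedom). Tests were two-sided, with Benjamini-Hochberg adjustment over all genes tested in a contrast. Library totals of 10257675 to 15176286 make 3 counts equal to 0.198 to 0.292 CPM. Intervals cover the spread between libraries as the model estimates it. Counts were simulated with a small set of genes changed, all others at the same mean in every group, and each gene's estimated spread. The model was checked on these counts. It called 18 to 22% of genes given a 1.5-fold change, 58 to 68% at 2-fold and 88 to 90% at 4-fold. An uncalled gene is therefore not shown to be unchanged. Of the simulated calls, 3.1 to 5.3% in the injury contrasts and 8.76 to 9.35% in the genotype contrasts were unchanged genes. The share of changed genes in the simulation was not matched to these data, so these rates need not hold for the tests reported. No permutation test is given, since 3 libraries against 3 cannot reach a p of 0.05.

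Promoter windows and gene positions came from RefSeq tables of GRCm38.p6, the assembly that mm10 denotes. Windows were searched on both strands with Python 3.11.15.

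The 39 genes, their role classes and all other lists were chosen with earlier results of these data known. Values in every library were to be given for up to 4 genes of each class with the smallest p in each injury contrast, for those called between genotypes, and for those against their class. Of each other pathway list the rule takes up to 4 called genes with the smallest p, and Ifnb1, Ifng, Irf1, Yap1 and Postn in any case. A further gene of that rule is not reported here. Further genes, Ifit2, Mx2 and Psmb10 among them, were named after their values were seen. Alternatives were median-of-ratios (RLE) factors, no filter, DESeq2 1.42.0, the 2 groups alone, a replicate block and leaving out each library. Library totals without TMM, and leaving out both sham libraries numbered 2, were added after seeing the data.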

Additional observations from a re-analysis of the deposited data

How the results depend on the processing

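The injury counts and class medians in Cre-positive hearts kept their direction and stayed within 1.5 times the reported counts under all alternatives run. Leaving out each library in turn gave 18 to 31 of the 39 genes called higher in Cre-negative hearts (18 without Cre-negative sham 1), and 0 to 1 of the 6 GTPases there (0 without Cre-negative sham 1 or 3). These fits gave 0 to 3 genes called between genotypes after MI (3 without Cre-positive sham 2), 3 to 8 after sham surgery (3 without Cre-negative sham 1, 7 with all libraries) and 0 to 1 for the difference of responses (1 without Cre-negative sham 2). Without both sham libraries numbered 2, a choice made after seeing the data, 5 GTPases were called higher in Cre-negative hearts, 2 genes between genotypes after MI and 1 gene for the difference. Without both, the genotype medians after sham surgery were 0.07 for effectors and -0.05 for GTPases, and the medians of the difference were -0.06 and 0.20. DESeq2 called 177 genes between genotypes after MI, 39 after sham surgery, 1 of them an interferon-stimulated gene (Iigp1, lower in Cre-positive hearts), and 34 for the difference, including 1 of the 39 genes, the GTPase Iigp1. With only the 2 groups compared, 1 gene was called after MI and 0 after sham surgery. With no filter on low counts 2 genes were called for the difference. The cause of these changes was not tested. Without TMM the median of all genes shifted to 0.24 and 0.27 in the injury contrasts of Cre-positive and Cre-negative hearts. No called value of the 39 genes changed sign under any alternative. Among their single values 51 lost and 40 gained a call. A replicate block gave 36 genes called in Cre-positive (Igtp lost) and 27 in Cre-negative hearts (Ifi35 lost). The correlation of same-numbered deviations ran from -0.15 to 0.29 over the group pairs. Differently numbered libraries were not compared in this way, so these values cannot show whether the numbers pair the samples. Depth limits Mx1, Zbp1, Mx2, Oasl1 and Dhx58 in sham libraries, where values came within a few counts of the floor.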

Other observations

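Of 12 further genes of class I antigen presentation 6 rose and 0 fell in Cre-positive hearts, where 25.7% of all genes tested were called higher and 19.5% lower. In Cre-negative hearts 6 rose and 2 fell, where 29.9% were called higher and 24.4% lower. The class I heavy chains H2-D1 (1.28 ± 0.17 and 1.30 ± 0.17) and H2-K1 (1.09 ± 0.20 and 1.11 ± 0.20) rose on the log2 scale in Cre-positive and in Cre-negative hearts. The immunoproteasome subunits Psmb8 (1.43 ± 0.21 and 1.23 ± 0.21) and Psmb9 (1.35 ± 0.27 and 0.87 ± 0.26) rose in both, while the subunit gene Psmb10 (not called) had 0.00 ± 0.19 and -0.01 ± 0.19. In Cre-negative hearts the proteasome activator gene Psme1 fell by 0.64 ± 0.14 and the peptide-trimming protease gene Erap1 fell by 0.38 ± 0.10.

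Among the chemokines induced by interferon gamma, Cxcl10 rose in both genotypes. It had 5.17, 8.74 and 15 CPM in Cre-positive MI libraries, against 0.588, 0.0818 and 0.187 CPM in Cre-positive sham libraries. In Cre-negative hearts Cxcl10 had 8.11, 10.9 and 6.58 CPM after MI and 0.256, 0.195 and 0.549 CPM after sham surgery. Its fitted log2 fold changes, 4.75 ± 0.56 and 4.39 ± 0.56, rest on sham levels of a few counts. Cxcl9 was not called (0.66 ± 0.43 and -0.04 ± 0.42), and Cxcl11 had 48 reads over the 12 libraries.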
